A study of Homo sapiens with 8 samples.

Results

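The clustered histone genes are the rows of the RNA sequencing (RNA-seq) table whose symbol begins with HIST1H, HIST2H, HIST3H or HIST4H, and 23 of its 13307 genes met that rule. They comprise 1 H1 gene, 6 H2A genes, 8 H2B genes, 4 H3 genes and 4 H4 genes. RefSeq names 71 protein-coding genes with such a symbol, and those outside the 23 were not analysed here. All 23 reached the minimum of 10 normalised counts in at least 2 libraries, a minimum that every gene of the table met.

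The libraries came from Panc-1, a line established from a human pancreatic duct carcinoma, and all 8 were made from siRNA-transfected cells. Cells received a non-targeting siRNA (siControl) or siRNAs against PHF13 (siPHF13), a PHD finger protein that reads methylated histone H3, and each was studied without TGFβ (siControl, siPHF13) or after 48 h with 10 ng/ml TGFβ (siControl_TGFb, siPHF13_TGFb). Each of the 4 groups held 2 libraries, and no untransfected library was analysed here. Nothing in the labels says that the 2 libraries came from separate cultures, so p-values measure the spread between these libraries, which may be technical. Libraries were prepared from poly(A) RNA, which bears on histone mRNAs as described next.

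Histone proteins package DNA into nucleosomes, each a core of H2A, H2B, H3 and H4, with H1 binding the linker between them. The clustered genes are known for a sharp rise in S phase, when new DNA needs new nucleosomes, and their main mRNAs carry no poly(A) tail. They end instead after a short stem-loop that is bound by SLBP, the stem-loop binding protein, and cut by a complex with the U7 snRNP. Some of these genes also make polyadenylated transcripts that run past the stem-loop, in particular when cells leave the cycle or differentiate. A poly(A) library holds the tailed forms and only a remainder of the others, so the values below are not total histone mRNA.

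The sequence of that stem-loop, after which the untailed mRNAs end, was read for the members from the GRCh37 genome. The search covered 200 bases after the stop codon. Of the members, 21 had a position on GRCh37 in GENCODE, 20 of these held a stem-loop, and none was found for HIST1H3E. The 2 sides of the stem, of 6 bases each, are in capitals and the loop of 4 bases in lower case, all written 5′ to 3′ as DNA.
10 members including HIST1H2BN, HIST1H2AC, HIST2H2BE, HIST3H2A and HIST1H3B: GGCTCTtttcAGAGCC
HIST1H2BK, HIST1H2BJ, HIST1H2BC and HIST1H2BD: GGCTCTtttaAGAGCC
HIST1H4H, HIST1H4E and HIST4H4: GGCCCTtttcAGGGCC
HIST1H4I: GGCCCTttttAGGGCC
HIST1H2AK: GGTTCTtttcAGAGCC
HIST1H2AG: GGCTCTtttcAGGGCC
In the first 4 forms all 6 positions of the stem pair, whereas HIST1H2AK and HIST1H2AG keep 5 of 6 Watson-Crick pairs. For 10 of the 20 members, GENCODE lists a transcript with over 100 exonic bases past the stem-loop. These are HIST1H2AC, HIST3H2A, HIST1H2BC, HIST1H2BD, HIST1H2BJ, HIST1H2BN, HIST2H2BE, HIST1H3H, HIST1H4H and HIST4H4. In HIST1H2BN the longest of these runs on for 3699 exonic bases, and in HIST1H2BD for 375.

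Among the members, 6 lie as 3 divergent pairs, in which an H2A and an H2B gene start back to back and share the stretch between them. That stretch is shown because both genes of each pair were measured here. The plus strand of GRCh37 is given between the start sites of the representative transcripts, with capitals for the octamer (ATTTGCAT, the OCT1 site of H2B genes), the CCAAT box (CCAAT) and the TATA box (TATAAA), each searched on both strands, where overlapping matches run together.
HIST1H2AK and HIST1H2BN, chr6:27806154-27806346, 193 bases: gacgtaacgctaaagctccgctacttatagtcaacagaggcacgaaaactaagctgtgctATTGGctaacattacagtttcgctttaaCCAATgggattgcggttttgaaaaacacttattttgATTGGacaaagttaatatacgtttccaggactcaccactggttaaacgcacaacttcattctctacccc
HIST1H2BJ and HIST1H2AG, chr6:27100575-27100821, 247 bases: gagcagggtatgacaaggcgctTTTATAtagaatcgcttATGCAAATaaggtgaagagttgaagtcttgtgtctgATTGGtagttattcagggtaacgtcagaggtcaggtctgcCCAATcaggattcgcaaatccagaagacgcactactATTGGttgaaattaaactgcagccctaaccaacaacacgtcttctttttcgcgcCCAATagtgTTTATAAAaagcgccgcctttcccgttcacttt
HIST1H2BC and HIST1H2AC, chr6:26124155-26124399, 245 bases: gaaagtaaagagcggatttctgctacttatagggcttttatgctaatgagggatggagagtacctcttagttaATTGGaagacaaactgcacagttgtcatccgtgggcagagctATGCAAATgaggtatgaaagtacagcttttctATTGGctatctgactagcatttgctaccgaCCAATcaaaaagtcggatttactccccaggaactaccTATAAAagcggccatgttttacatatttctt
All 3 stretches hold the CCAAT box. The octamer and the TATA box stand in the stretches of HIST1H2BJ with HIST1H2AG and of HIST1H2BC with HIST1H2AC, and neither was matched between HIST1H2AK and HIST1H2BN. In windows from 250 bases before to 50 bases after each start site, the octamer was matched in 7 of the 21 placed members (33.3%), in 35.3% of all 68 clustered histone genes placed on GRCh37 and in 1.57% of 20136 protein-coding genes. All 7 members with it are H2A or H2B genes. The CCAAT box was matched in 85.7% of the members and 35.91% of protein-coding genes, and the TATA box in 61.9% and 9.79%. A match is a description of these letters and not a measured binding site, and paired genes share part of their windows.

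PHF13 itself checked the labels. It was at 1804 and 1662 normalised counts in siControl, 1586 and 1709 in siControl_TGFb, 524.2 and 558.3 in siPHF13, and 512.8 and 529.4 in siPHF13_TGFb, so the depleted libraries lay below all others. The table held between 39196214 and 46700806 reads per library. The duct epithelial markers KRT7, KRT8, KRT18, KRT19 and EPCAM were all present, with KRT8 between 70722 and 120045 normalised counts. Of the blood, endothelial, fibroblast and acinar markers examined, CD68, COL1A1 and CEL were in the table. CD68 was at 6137 to 7666 normalised counts in the 4 control libraries and 10524 to 13400 in the 4 depleted ones, COL1A1 ranged from 1887 in siPHF13 to 16414 in siControl_TGFb, and CEL stayed between 6.47 and 25.2, and their part in the results was not tested.

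The members took 0.0164% to 0.0229% of the reads of a library. HIST1H2BK, an H2B gene, held most of them, with 4191 to 6904 normalised counts, and the other 22 members together had 2772 and 2719 in siControl and 2787 to 2912 in the 6 libraries of the other groups. Without HIST1H2BK, the members that moved in opposite directions thus stood beside a nearly level sum. The sum over all members, most of it HIST1H2BK, was not level. It was 7211 and 6911 in siControl, 8630 and 8409 in siPHF13, 8536 and 8255 in siControl_TGFb, and 9691 and 9453 in siPHF13_TGFb. The depth was low for many members. No member other than HIST1H2BK exceeded 697.1 normalised counts in a library, and HIST1H3B, HIST1H2AK, HIST1H4I, HIST3H2A and HIST1H2AI had libraries with under 10 reads. A change in the share of cells in S phase and a change in mRNA per cell cannot be told apart in such bulk libraries.

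**Figure D1:**
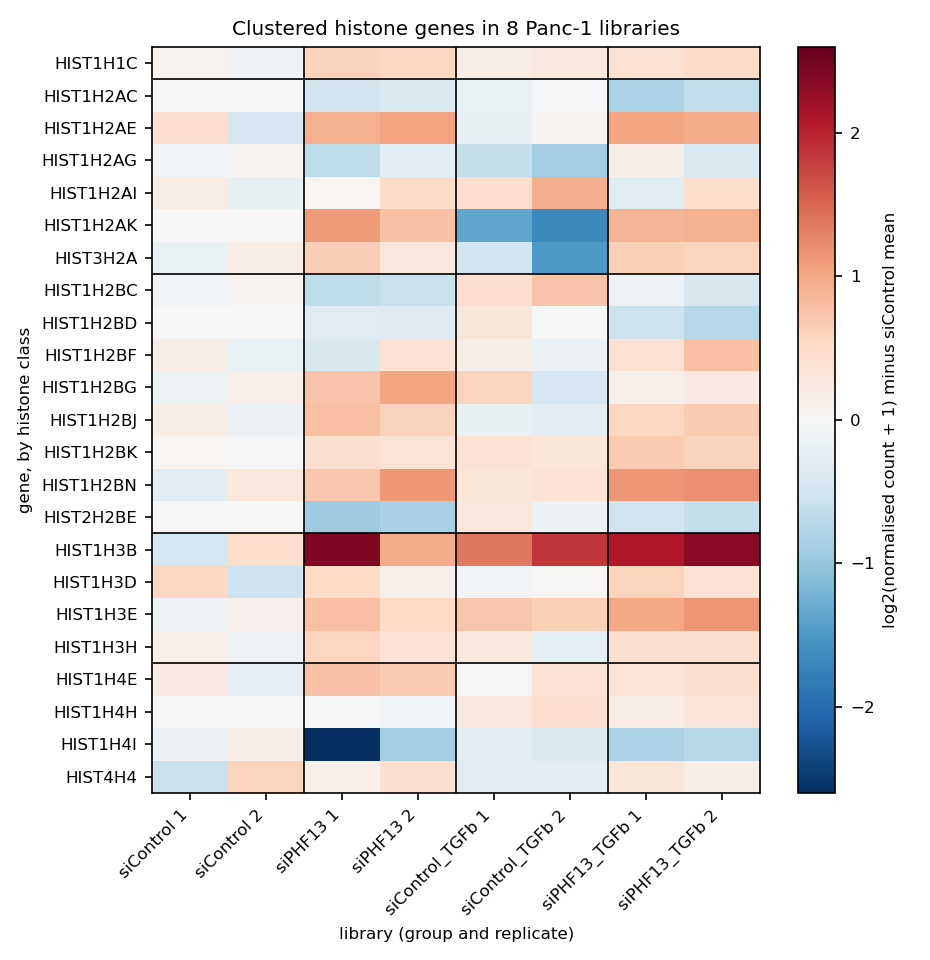
Log2(normalised count + 1) of the 23 clustered histone genes (rows, by histone class) in the 8 libraries (columns), minus the mean of the 2 siControl libraries of that gene. Rows of the same class carry both colours: HIST1H2BJ and HIST1H2BN are red (higher) and HIST2H2BE and HIST1H2BC blue (lower) in both siPHF13 libraries.

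The first question was what PHF13 depletion does to the clustered histone genes in cells without TGFβ. A gene was called when limma gave a Benjamini-Hochberg adjusted p under 0.05 over all genes and an absolute log2 fold change over 0.58, taken on log2(normalised count + 1). In siPHF13 against siControl, 6 of the 23 members were called (26.1%) beside 18.4% of all genes. Of these, 3 rose, against a background of 7.95% of genes, and 3 fell, against 10.4%. The rising members were HIST1H2BJ, HIST1H2BN and HIST1H3B, and the falling ones HIST2H2BE, HIST1H2BC and HIST1H4I. The median log2 fold change of the 23 members was 0.39 and that of all genes was -0.00094.

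Among the H2B genes the called members went both ways. HIST1H2BJ (chr6:27093676-27100574, minus strand) had 198.2 and 161.3 normalised counts in siControl and 308.3 and 272.3 in siPHF13. Both depleted libraries lay above both controls, by 0.69 on the log2 scale (SE 0.17, limma adjusted p = 0.00384). HIST1H2BN (chr6:27806323-27823487, plus strand) had 88.21 and 129.7 normalised counts in siControl and 175.1 and 235.8 in siPHF13. The groups did not overlap although the 2 libraries of each were well apart, and the log2 fold change was 0.92 (SE 0.22, limma adjusted p = 0.00319). Each of these 2 calls was lost when 1 siControl library was left out, HIST1H2BJ without replicate 2 (log2 fold change 0.55) and HIST1H2BN without replicate 1 (0.64).

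HIST2H2BE, an H2B gene of the chromosome 1 cluster (chr1:149856009-149858232, minus strand) whose representative transcript of 2224 bases runs far past the stem-loop, moved the other way. It had 197.3 and 202.7 normalised counts in siControl and 105.4 and 110.5 in siPHF13. The replicates agreed closely, and the log2 fold change was -0.88 (SE 0.19, limma adjusted p = 0.00193), a call that held without any one library. HIST1H2BC (chr6:26086545-26124154, minus strand) had 87.26 and 97.31 normalised counts in siControl and 57.69 and 61.16 in siPHF13. The libraries did not overlap, but the call was close to the threshold (log2 fold change -0.62, SE 0.24, limma adjusted p = 0.0462), and edgeR (0.0588) and DESeq2 (0.0758) on the recovered reads did not make it. It was also lost when only the libraries compared were fitted (0.0567) and without any one of the siControl, siPHF13 or siControl_TGFb libraries (adjusted p from 0.051 to 0.201). In GENCODE, exons of HIST1H2BC share 430 bases with HFE and 460 with an unclassified gene, both on the other strand, and the strand setting of the counting is not given in the sources used here.

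One H3 and one H4 gene were called on few reads. HIST1H3B, an H3.1 gene (chr6:26031817-26032327, minus strand), had 3.794 and 8.109 normalised counts in siControl, from 4 and 9 reads, and 33.82 and 11.84 in siPHF13. The groups did not overlap, and the 2 depleted libraries were far apart (log2 fold change 1.68, SE 0.61, limma adjusted p = 0.0356). The call was lost without siPHF13 replicate 1 (0.96) and without siControl replicate 1 (1.22). Fitting only the libraries compared lost it too. HIST1H4I, an H4 gene (chr6:27107061-27107457, plus strand), had 33.2 and 41.45 normalised counts in siControl and 4.973 and 19.73 in siPHF13, the lowest from 5 reads. The log2 fold change was -1.78 (SE 0.56, limma adjusted p = 0.0175) and came to -0.88, not called, without siPHF13 replicate 1. It was also lost without siControl replicate 1 (-1.93) and without siControl replicate 2 (-1.62). A RefSeq gene model of HIST1H2BK, longer than its GENCODE transcript, spans HIST1H4I.

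A further 3 members passed the adjusted p without reaching the fold. HIST1H2BK (chr6:27114140-27114634, minus strand), whose single GENCODE transcript ends at the stem-loop, had 4439 and 4191 normalised counts in siControl and 5780 and 5524 in siPHF13. With its many reads the error was small, and the log2 fold change was 0.39 (SE 0.063, limma adjusted p = 0.000204). HIST1H1C, the only H1 gene here (chr6:26055968-26056698, minus strand), had 483.7 and 428.9 normalised counts in siControl and 688.3 and 659.9 in siPHF13, a log2 fold change of 0.56 (SE 0.11, limma adjusted p = 0.000923) just under the fold threshold. It became a call without siControl replicate 1 or siPHF13 replicate 2. HIST1H2AC, an H2A gene, had 697.1 and 680.3 in siControl and 492.4 and 526.8 in siPHF13, a log2 fold change of -0.43 (SE 0.11, limma adjusted p = 0.00649).

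**Figure D2:**
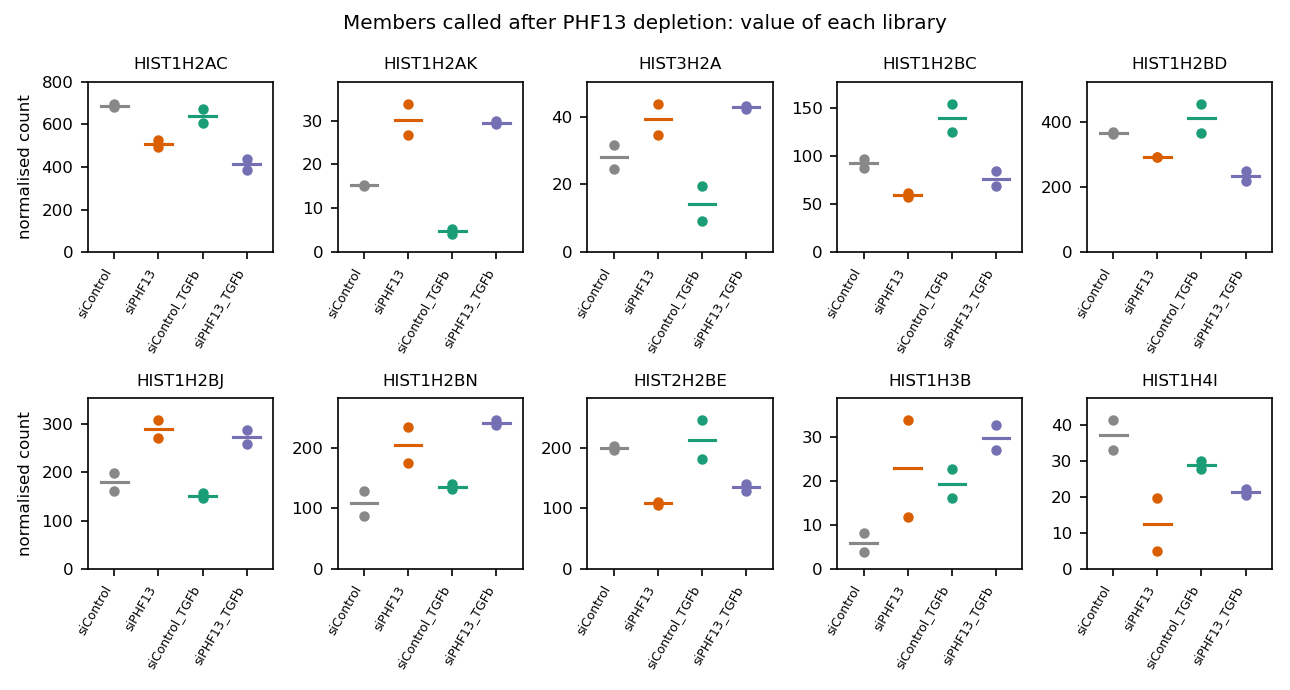
Normalised count (y axis, from 0, scaled per gene) of the 10 members called in at least 1 depletion comparison, in each of the 4 groups (x axis), with a point for each library and a line for the mean of 2. HIST1H2BJ and HIST1H2BN sit higher, and HIST2H2BE, HIST1H2BC, HIST1H2BD and HIST1H2AC lower, in siPHF13 than in siControl and in siPHF13_TGFb than in siControl_TGFb.

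The same question was put to TGFβ-treated cells. The group means come from other libraries than in the comparison above, while the estimate of the spread is shared by all 8. In siPHF13_TGFb against siControl_TGFb, 8 of the 23 members were called (34.8%) beside 20.5% of all genes. Of these, 4 rose, against a background of 8.81% of genes, and 4 fell, against 11.7%. The median log2 fold change was 0.40 for the members and 0.0034 for all genes. HIST1H2BJ, HIST1H2BN, HIST2H2BE and HIST1H2BC were called in both comparisons and in the same direction in each, which makes 4 of the 6 called without TGFβ and 4 of the 8 called with it. Over all genes, 1823 were called in both in the same direction, 74.5% of those called without TGFβ and 66.9% of those called with it, so the shares of the members were not above those of all genes.

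Of the rising members, HIST1H2BJ had 157.4 and 146.1 normalised counts in siControl_TGFb and 259.1 and 288.7 in siPHF13_TGFb (log2 fold change 0.85, SE 0.17, limma adjusted p = 0.000859). HIST1H2BN had 132.6 and 139.9 in siControl_TGFb and 238.6 and 246.4 in siPHF13_TGFb (0.83, SE 0.22, limma adjusted p = 0.00571). In both genes the depleted libraries lay clear of the controls, and here the replicates of HIST1H2BN were close together. HIST1H2AK, the H2A partner of HIST1H2BN (chr6:27805658-27806153, minus strand), had 5.39 and 4.114 normalised counts in siControl_TGFb, from 5 and 4 reads, and 29.15 and 29.84 in siPHF13_TGFb. This was the largest change among the members (log2 fold change 2.42, SE 0.51, limma adjusted p = 0.00136), and it remained a call without any one library. HIST3H2A, an H2A gene of a small cluster on chromosome 1 (chr1:228622478-228645574, minus strand), had 19.41 and 9.257 normalised counts in siControl_TGFb and 43.18 and 42.35 in siPHF13_TGFb. Its depleted libraries nearly coincided and its controls did not (log2 fold change 1.60, SE 0.44, limma adjusted p = 0.00773), and the call was lost without siControl_TGFb replicate 2 (1.10, adjusted p = 0.071).

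HIST1H2AK and HIST3H2A had lower values in siControl_TGFb than in siControl, a difference that was not called (limma adjusted p = 0.0616 and 0.151). HIST1H2AK had 15.18 and 15.32 normalised counts in siControl and 33.82 and 26.63 in siPHF13, and HIST3H2A had 24.66 and 31.54 in siControl and 43.76 and 34.53 in siPHF13. Both depleted groups of each gene thus overlapped, and the lowest libraries were those of siControl_TGFb. Neither was called without TGFβ (limma adjusted p = 0.15 and 0.409).

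All 4 falling members were H2A or H2B genes with an annotated transcript past the stem-loop. So were the rising HIST1H2BJ, HIST1H2BN and HIST3H2A, while the rising HIST1H2AK is an H2A gene without such a transcript. HIST1H2AC (chr6:26124373-26139344, plus strand) had 608 and 673.7 normalised counts in siControl_TGFb and 386.5 and 439.9 in siPHF13_TGFb (log2 fold change -0.63, SE 0.11, limma adjusted p = 0.000418). HIST1H2BD (chr6:26158350-26171577, plus strand) had 457.1 and 368.2 in siControl_TGFb and 249.4 and 218.5 in siPHF13_TGFb (-0.81, SE 0.15, limma adjusted p = 0.000396), and a RefSeq antisense gene overlaps it. The depleted libraries of both genes lay below the controls. HIST1H2BD had 365.2 and 370.3 in siControl and 294.4 and 293 in siPHF13, a lower level in both depleted libraries that did not pass the test (log2 fold change -0.32, SE 0.15, limma adjusted p = 0.0831). HIST2H2BE had 245.8 and 181 in siControl_TGFb and 140.3 and 129 in siPHF13_TGFb (-0.65, SE 0.19, limma adjusted p = 0.0129). HIST1H2BC had 125.1 and 154.3 in siControl_TGFb and 84.2 and 68.34 in siPHF13_TGFb (-0.86, SE 0.24, limma adjusted p = 0.00855). The groups did not overlap in either gene. The call of HIST2H2BE was lost without siControl_TGFb replicate 1 (-0.43) or siPHF13_TGFb replicate 2 (-0.58), that of HIST1H2BC without siControl_TGFb replicate 2 (-0.71) or siPHF13_TGFb replicate 2 (-0.72), and that of HIST1H2AC, by its fold alone, without siControl_TGFb replicate 2 (-0.56) or siPHF13_TGFb replicate 1 (-0.54).

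HIST1H2BK again passed the adjusted p below the fold, with 5624 and 5379 normalised counts in siControl_TGFb and 6904 and 6579 in siPHF13_TGFb (log2 fold change 0.29, SE 0.063, limma adjusted p = 0.00162). The 2 members called without TGFβ alone had the same sign here. HIST1H3B had 16.17 and 22.63 in siControl_TGFb and 26.99 and 32.72 in siPHF13_TGFb (0.61, SE 0.61, limma adjusted p = 0.432), and HIST1H4I had 30.19 and 27.77 against 20.51 and 22.14 (-0.43, SE 0.56, limma adjusted p = 0.554).

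**Figure D3:**
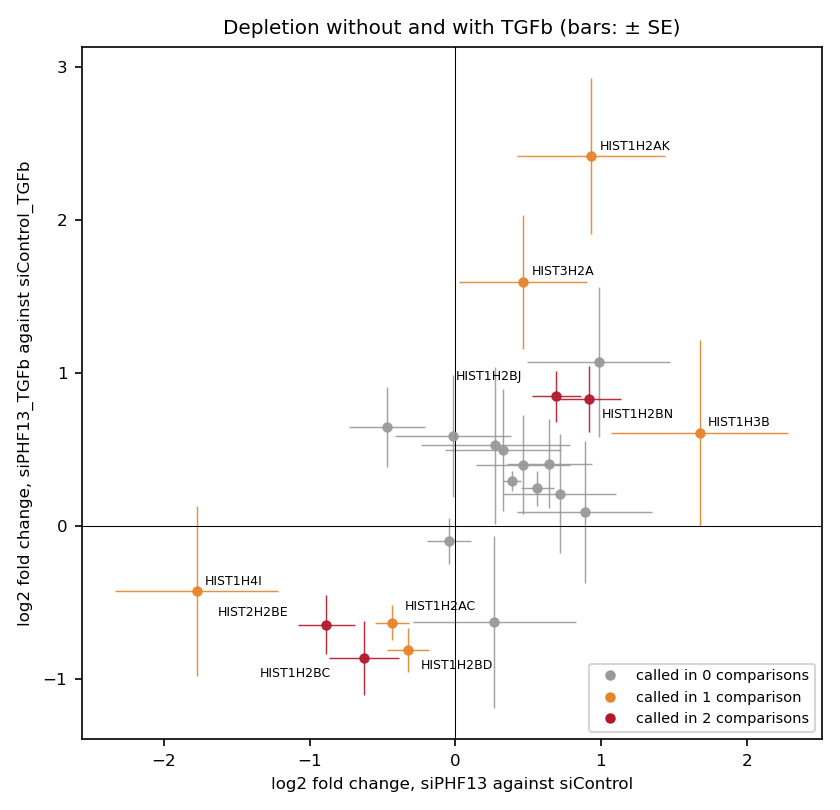
Log2 fold change of each of the 23 members after PHF13 depletion without TGFβ (x axis) and with TGFβ (y axis), with bars of 1 SE, coloured by the number of these comparisons in which it was called. HIST1H2BJ and HIST1H2BN lie in the upper right and HIST2H2BE and HIST1H2BC in the lower left. HIST1H2AK at 0.93 and 2.42 lies highest.

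The divergent pairs can be read against the sequences given above. In the pair of HIST1H2BC and HIST1H2AC both genes had lower values after depletion, with log2 fold changes of -0.62 and -0.43 without TGFβ and -0.86 and -0.63 with it. The unclassified gene opposite HIST1H2BC also shares 27 exonic bases with HIST1H2AC, on the same strand. Its part in these values was not tested. In the pair of HIST1H2BN and HIST1H2AK both had higher values, 0.92 and 0.93 without TGFβ and 0.83 and 2.42 with it. In the pair of HIST1H2BJ and HIST1H2AG the partners had opposite signs without TGFβ and the same sign with it. HIST1H2AG, whose stem-loop keeps 5 of 6 Watson-Crick pairs and whose single transcript ends there, had 112.9 and 125.2 normalised counts in siControl, 74.6 and 98.64 in siPHF13, 76.54 and 62.74 in siControl_TGFb and 132.8 and 89.51 in siPHF13_TGFb. Its log2 fold changes were -0.47 (SE 0.26, limma adjusted p = 0.161) and 0.65 (SE 0.26, adjusted p = 0.0533), neither a call, beside 0.69 and 0.85 for HIST1H2BJ. The second became a call without siPHF13_TGFb replicate 2. The difference within a pair was not tested.

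Split by their annotated ends, 7 of the 10 members with a transcript past the stem-loop were called in at least 1 depletion comparison, 3 higher and 4 lower, beside 25.2% of all genes. Of the 10 members without one, 3 were called, 2 higher (HIST1H3B and HIST1H2AK) and 1 lower (HIST1H4I). The split used GENCODE transcripts and so puts HIST1H2BK in the second set despite its longer RefSeq model. The median of the mean normalised counts was 168.6 for the first set and 28.12 for the second, so the sets also differed in the reads behind their values, whose part in the counts was not tested.

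The other question was whether TGFβ changes these genes. In siControl_TGFb against siControl, which shares the siControl libraries with the first depletion comparison and the siControl_TGFb libraries with the second, limma called 0 of the 23 members beside 4.79% of all genes. At an unadjusted p under 0.05 there were 8, beside 28.4% of all genes, and edgeR and DESeq2 also called 0. HIST1H2BK alone passed the adjusted p, from 4439 and 4191 normalised counts to 5624 and 5379 (log2 fold change 0.35, SE 0.063, limma adjusted p = 0.00175). The widest differences were those of HIST1H3B at 1.61 (SE 0.61, limma adjusted p = 0.0943), HIST1H2AK at -1.51 (SE 0.51, adjusted p = 0.0616), HIST3H2A at -0.998 (SE 0.44, adjusted p = 0.151) and HIST1H2AG at -0.77 (SE 0.26, adjusted p = 0.0624). In each of these 4 genes the treated libraries lay outside the range of the controls. They were picked for the width of their differences, and such separation was not counted over all genes, so it adds no support. HIST1H2AG became a call when only the 4 libraries compared were fitted, or without either siPHF13_TGFb library.

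In depleted cells, siPHF13_TGFb against siPHF13, limma, edgeR and DESeq2 each called 0 members, beside 1.35% of all genes in limma, and 3 members had an unadjusted p under 0.05, beside 13.9% of all genes. HIST1H2BK rose from 5780 and 5524 to 6904 and 6579 normalised counts (log2 fold change 0.25, SE 0.063, limma adjusted p = 0.0461), again short of the fold. Over the 4 groups its libraries were lowest in siControl and highest in siPHF13_TGFb, while siControl_TGFb and siPHF13 overlapped in between. The test of whether the TGFβ response differed after depletion called 0 members with limma, edgeR and DESeq2, beside 0.308% of all genes in limma, and 2 members had an unadjusted p under 0.05, beside 9.46% of all genes. These were HIST1H2AG (difference of log2 fold changes 1.11, SE 0.37, limma adjusted p = 0.288) and HIST1H2BD (-0.49, SE 0.21, adjusted p = 0.457). A call of HIST1H2AK, HIST3H2A, HIST1H2AC or HIST1H2BD with TGFβ and not without it is therefore not a shown difference between the treatments.

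The remaining members were called in none of the comparisons. Among H2A genes, HIST1H2AE ranged over the 8 libraries from 9.911 to 29.59 normalised counts (median 22.91) and HIST1H2AI from 9.716 to 24.69 (median 15.74). HIST1H2AE had 18.97 and 9.911 in siControl, 26.86 and 29.59 in siPHF13, 11.86 and 14.4 in siControl_TGFb, and 29.15 and 27.91 in siPHF13_TGFb. Its depleted libraries thus lay above all controls, with log2 fold changes of 0.98 (SE 0.49, limma adjusted p = 0.116) and 1.07 (SE 0.49, adjusted p = 0.0854) that missed the threshold. For HIST1H2AI, 47.1% of the 150-base windows of its transcript were unique among the transcripts searched, so its reads could be split with near-identical copies. All windows were unique for the other placed members, but genes that overlap a member were left out of this search. HIST1H3D shares 486 of the 503 bases of its transcript with an overlapping gene on the same strand. HIST1H2BC shares all 460 with an unclassified gene on the other strand. Among H2B genes, HIST1H2BF ranged from 22.88 to 53.9 and HIST1H2BG from 14.4 to 41.43, and neither was placed on GRCh37 here.

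The H3 genes not called were HIST1H3D (22.53 to 49.66 normalised counts), HIST1H3E (32.25 to 78.92) and HIST1H3H (32.91 to 57.69). HIST1H3E had 32.25 and 37.84 in siControl, 60.67 and 50.31 in siPHF13, 58.22 and 54.51 in siControl_TGFb and 71.25 and 78.92 in siPHF13_TGFb, where the untreated controls lay below all other libraries (log2 fold change 0.65 after depletion, SE 0.29, limma adjusted p = 0.0841). All 4 H3 genes had a positive log2 fold change in both depletion comparisons, of which 1, HIST1H3B without TGFβ, was a call. With TGFβ, 0 of the 4 had an unadjusted limma p under 0.05. Positive values were also found in 15 of the 23 members and 6638 of the 13307 genes without TGFβ, and in 16 and 6692 with it. The H4 genes not called were HIST1H4H (203.2 to 291.1), HIST1H4E (20.72 to 41.78) and HIST4H4 (12.33 to 28.83). HIST1H4H, with more reads than the other H4 genes, had log2 fold changes after depletion of -0.04 (SE 0.15) and -0.10 (SE 0.15), and part of its exons lies opposite a long non-coding RNA. HIST1H3D lies within a readthrough gene on its own strand.

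Genes that act on histone mRNA or histone supply were described by lists written out with earlier results known. Of the 25 genes measured of the list for histone mRNA transcription and 3′ end processing, depletion without TGFβ lowered 1, ZCCHC6, a terminal uridylyltransferase (log2 fold change -0.71, SE 0.08, limma adjusted p = 1.1e-05), with a list median of -0.0084. With TGFβ, ZCCHC6 fell again (-0.86) and 3 genes rose, ERI1, an exonuclease that trims the histone mRNA end (0.64), MIF4GD, an SLBP partner (0.60), and LSM10, a U7 snRNP subunit (0.60). The called genes were 4% of the list without TGFβ and 16% with it, beside 18.4% and 20.5% of all genes. SLBP itself had 3741 and 3601 normalised counts in siControl, 3492 and 3439 in siPHF13, 3306 and 3137 in siControl_TGFb, and 3280 and 3432 in siPHF13_TGFb. NPAT, the coactivator at the histone loci, had 2420 and 2462, 2247 and 2377, 2295 and 2465, and 2262 and 2171 in that order. Neither was called in any comparison.

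Of 11 replication-independent histone variant genes in the table, H2AFY2 (macroH2A2) rose without TGFβ (1.39, SE 0.53, limma adjusted p = 0.0452) on few reads, a call that edgeR and DESeq2 did not make, and H2AFZ (0.78), H2AFJ (0.73) and H1FX (0.68) rose with it. The limma calls were 9.09% of these genes without TGFβ and 27.3% with it, beside 18.4% and 20.5% of all genes. Of 24 chaperone and assembly genes, none was called without TGFβ by limma, where 12 had an unadjusted p under 0.05 (beside 54% of all genes), or by DESeq2, while edgeR called 1 (ASF1B, at 0.58 in limma), and ASF1B (0.93) and TONSL (0.72) rose with it. The first is a chaperone of H3 and H4 and the second reads new H4 behind the replication fork. Together they were 8.33% of the chaperone and assembly genes, beside 20.5% of all genes called with TGFβ.

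In the axis of cyclin E, CDK2 and E2F, which drives histone gene transcription at S phase entry, all 22 genes were measured. Without TGFβ, CCND2 (-1.85), CDKN1A (-1.05) and CCND1 (-1.01) fell after depletion. With TGFβ these 3 fell again (-1.65, -1.36 and -1.18), and E2F1 (0.76), CCNE1 (0.70) and E2F8 (0.69) rose. TGFβ raised CDKN1A, the p21 inhibitor of CDK2, by 1.06 in control cells and by 0.76 in depleted cells, and lowered E2F2 (-0.90) and E2F8 (-0.70) in control cells. The genes called after depletion were 13.6% of the list without TGFβ and 27.3% with it, beside 18.4% and 20.5% of all genes. Those called for TGFβ were 13.6% in control and 4.55% in depleted cells, beside 4.79% and 1.35% of all genes.

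Of the 40 S phase genes measured, 1 rose (RFC2, 0.61) and 1 fell (HELLS, -0.73) after depletion without TGFβ, with a median log2 fold change of -0.021. In control cells TGFβ lowered 3 by both thresholds, TYMS (-0.73), E2F8 (-0.70) and WDR76 (-0.65). All 40 had a negative log2 fold change there, and 28 had a limma adjusted p under 0.05 at any fold, beside 2114 of all 13307 genes. The median was -0.37, beside 0.077 for the clustered histone genes and -0.0059 for all genes. In siPHF13_TGFb against siControl_TGFb, 8 rose, among them RFC2 (0.82), CDCA7 (0.72), CDC45 (0.72), DSCC1 (0.71) and E2F8 (0.69), with a median of 0.26. In these comparisons in turn, the called genes were 5%, 7.5% and 20% of the list, beside 18.4%, 4.79% and 20.5% of all genes. The last 2 comparisons share the siControl_TGFb libraries. The part of the S phase genes in the values of the clustered histone genes was not tested.

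**Figure D4:**
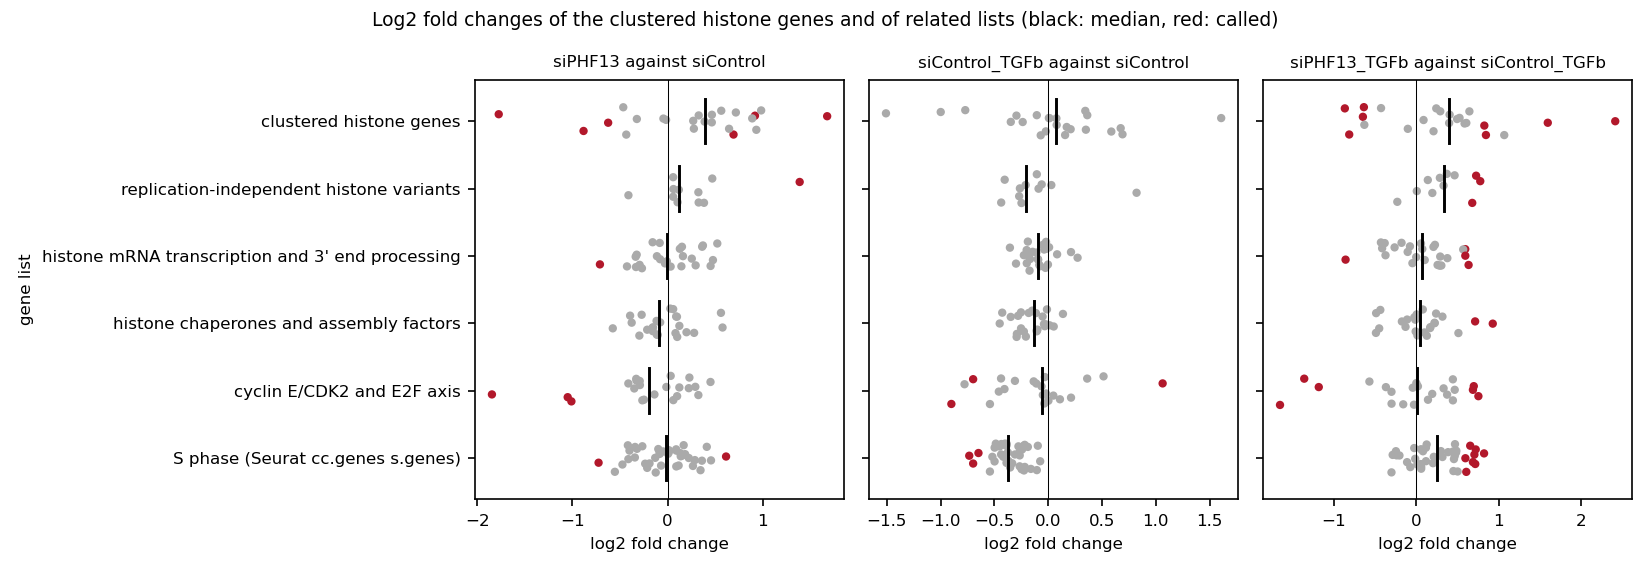
Log2 fold change (x axis, range set per panel) of each measured gene of the clustered histone genes and of 5 related lists (rows) in 3 comparisons (panels), with the list median as a black line and called genes in red. The S phase genes sit left of 0 in siControl_TGFb against siControl (median -0.37), where the clustered histone genes spread on both sides (median 0.077) and none is called.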

How the data were processed

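The deposited signal was a table of normalised counts that the authors made with DESeq2, after Trim Galore 0.4.1, STAR 2.7.0 to hg19 and HTSeq 0.12.4. The annotation release is not given in the sources used here. Other deposited tables hold the authors' own comparisons (group means, fold changes and p-values) and were not used. Every value was a whole multiple of 1 step per library (100% within 1e-06), which gave back whole reads for alternatives. In 1 siPHF13 library that step was close to 1.

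Log2(value + 1) was fitted with limma 3.58.1 (R 4.3.3, trend) over the 8 libraries and p-values were adjusted by Benjamini-Hochberg over 13307 genes, so fold changes are on that scale, which can understate those of low genes. The thresholds followed the study's methods. Alternatives were a pseudocount of 5, no minimum, TMM rescaling, only the libraries compared, a replicate block, no fold threshold, edgeR 4.0.16 (quasi-likelihood) and DESeq2 1.42.0 on recovered reads, and each library left out. The limma script was tested on simulated data. Each library held between 39196214 and 46700806 reads. Positions and sequences came from GENCODE v44lift37 on GRCh37, and current symbols were matched through RefSeq synonyms.

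Every member was named, those called in a comparison between conditions with the value of each library and the others by their range, and at most 5 called genes per related list and comparison. The members and lists were chosen with earlier results of these data known.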

Additional observations from a re-analysis of the deposited data

Results flagged for a closer look

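The response of MCM2, a subunit of the replicative helicase on the S phase list, to TGFβ differed between depleted and control cells by a test of the difference itself (interaction log2 fold change 0.434, SE 0.086, limma adjusted p = 0.0485), short of the fold of 0.58 that a call needed, with 5251 and 5433 normalised counts in siControl, 3737 and 3831 in siControl_TGFb, 5403 and 5384 in siPHF13, and 5035 and 5291 in siPHF13_TGFb. MCM2 was the 1 gene of the 40 on the S phase list to pass the adjusted p, while 39 of them had a positive difference (median 0.30). At an unadjusted limma p under 0.05 there were 23 of them, beside 9.46% of all genes. These genes were measured in the same 8 libraries and are not independent. No clustered histone gene passed the adjusted p of that test.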

How the results depend on the processing

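The number of clustered histone genes called in siPHF13 against siControl was 6 and ranged from 3 to 6 when each library was left out in turn, with 3 called without siControl replicate 1, siControl replicate 2 or siPHF13 replicate 1. In siPHF13_TGFb against siControl_TGFb it was 8 and ranged from 5 to 8, with 5 called without siControl_TGFb replicate 2. In siControl_TGFb against siControl it ranged from 0 to 1, with 1 called (HIST1H2AG) without siPHF13_TGFb replicate 1 or 2, and in the other comparisons it stayed at 0. Fitting only the libraries compared also gave 1 in siControl_TGFb against siControl. Without a threshold on the fold change, 1 member was called there and 1 in siPHF13_TGFb against siPHF13, HIST1H2BK in both, and 9 in each depletion comparison, where 6308 and 6712 of all genes were called in place of 2448 and 2726. For all genes the number called for the difference in response was 41 and ranged from 12 to 111 with a library left out. A group left with 1 library was assumed to vary like the others.

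Over the called values, 199 alternative fits kept the direction and the call, 25 kept the direction and lost the call, and none reversed. Not all of these fits could differ. No gene fell under the minimum and dropping the fold threshold only relaxed the rule, so neither alternative could lose a call. Those fits, the replicate block, only the libraries compared and leaving out an uncompared library keep the log2 fold change and could not reverse. The calls of HIST1H2AK and HIST1H2BD with TGFβ, of HIST2H2BE without it and of HIST1H2BJ and HIST1H2BN with it were kept under every alternative. The cause of the lost calls was not tested, beyond the fewer libraries fitted. With the replicate block, siPHF13 against siControl called 5 members, HIST1H2BC being lost (log2 fold change -0.62, adjusted p = 0.0567), and siPHF13_TGFb against siControl_TGFb called 8. Libraries of the same number did not deviate together (r between -0.0893 and 0.05 over 13307 genes for the 6 pairs of groups). This cannot show whether libraries of the same number were cultured or prepared together. TMM rescaling moved the median log2 fold change of all genes by at most 0.0046. HIST1H3B, HIST1H2AK, HIST1H4I, HIST3H2A and HIST1H2AI had libraries with under 10 reads, where counting error is large.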
